A study of Homo sapiens with 12 samples.

Results

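Gene expression after knockdown of CD44 was compared between cells that all received temozolomide. The members are the 3 libraries of CD44 knockdown cells with temozolomide and the 3 libraries of control cells with temozolomide, which are 6 of the 12 libraries of the series, chosen by their labels and count columns, and every gene that passed a filter on low counts, which was 12821 of the 20289 genes in the table. All libraries hold poly(A) RNA of the human glioblastoma line U251, an established cell line, sequenced on an Illumina instrument. Control cells are titled NC in these libraries, are given the genotype WT and are read here as cells with a control short hairpin RNA, because the matching solvent controls are titled shCtrl. Knockdown cells carry a short hairpin RNA against CD44. Both groups were kept in 50 µM temozolomide for 24 h. The remaining 6 libraries hold the same pair of cells given the solvent DMSO for 24 h, and they enter the fit's estimate of the spread and the test of whether the knockdown change differed between treatments. The labels state neither the hairpin sequences, nor whether a group is 1 clone, nor whether its 3 libraries come from separate cultures, and the p-values below thus reflect no more than library-to-library spread, which may be technical.

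CD44 is a transmembrane glycoprotein that binds hyaluronan, the long sugar polymer of the brain's extracellular matrix, and links it through ezrin, radixin and moesin to the actin cytoskeleton. It also acts as a co-receptor for growth factor receptors, its ectodomain is cut off by metalloproteinases, and in glioblastoma it is a marker of the mesenchymal cell state. Temozolomide is the alkylating drug used in glioblastoma treatment. It methylates guanine, the methyl group is taken off by the repair enzyme MGMT, and where it stays mismatch repair turns it into DNA breaks during the replication that follows. A short hairpin RNA lowers a transcript through the RNA interference machinery, so the targeted mRNA is reduced and not removed.

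Total estimated counts ran from 13.5 to 24.8 in units of 1e6 over the 6 temozolomide libraries, so that 3 counts, taken as the floor of detection, correspond to 0.121 to 0.222 CPM (counts per 1e6 counts of the library). Levels below are CPM after scaling by TMM, a factor per library that makes most genes equal between libraries, and changes are log2 fold changes of knockdown over control with their standard error (SE) from edgeR's quasi-likelihood fit. In a principal component analysis of these 6 libraries the first component held 55.7% of the variance, and the knockdown libraries all lay on the other side of 0 from the control libraries. Genes with a p below 0.05 after Benjamini-Hochberg adjustment in that fit are said to be called. Of the genes tested, 5426 (42.3%) were called, 2823 (22.0%) higher and 2603 (20.3%) lower, and these shares are the background against which each gene group below is read. Most of the changes were small. At least 2-fold changes were called in 311 genes higher (2.43%) and 116 lower (0.905%), and the median log2 fold change over all genes was 0.01. In 3390 genes (26.4%) every knockdown library was above every control library, and in 3123 (24.4%) below. Higher calls made up 52.0% of all calls with TMM scaling and 61.9% with scaling by library totals alone. After a correction for the GC content of each gene's longest transcript they made up 44.4%. As the RNA is from bulk cultures, fewer cells of a kind and less RNA per cell cannot be told apart in any result below.

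**Figure D1:**
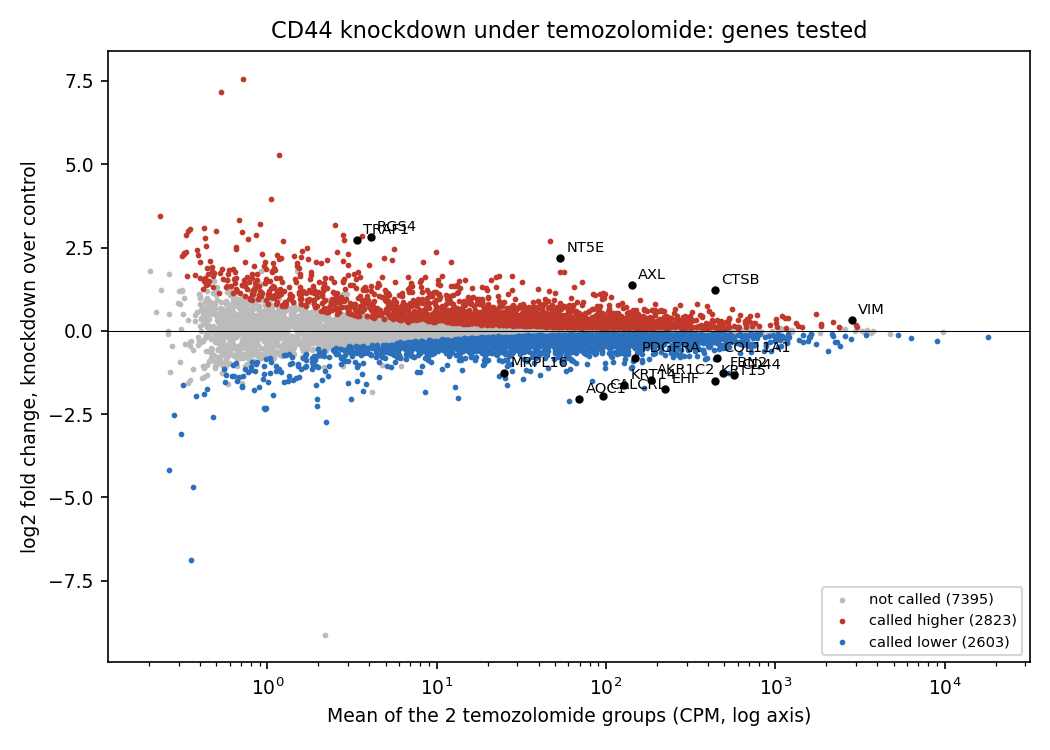
Log2 fold change of knockdown over control under temozolomide (vertical) against the mean CPM of the 2 temozolomide groups (horizontal, log axis) for the 12821 genes tested. Red points are the 2823 genes called higher and blue points the 2603 called lower; NT5E (2.19) stands far above the other genes of their level, while CD44 (-1.33), FBN2 (-1.26) and KRT15 (-1.50) are abundant genes that fell.

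CD44 itself was lower in every knockdown library, as the labels have it. CD44 stood at 851, 808 and 804 CPM in the control libraries and at 319.8, 326 and 333 CPM in the knockdown libraries. The groups did not overlap, and the log2 fold change was -1.33 (SE 0.03) with an edgeR adjusted p of 1.2e-16, so the transcript stayed far above the floor of detection. Of 26 listed genes of the hyaluronan system, 18 were tested and 7 were called higher and 5 lower. The enzymes that make hyaluronan moved apart. HAS2, a hyaluronan synthase at the plasma membrane, was low and fell from 3.61, 3.39 and 2.87 to 1.26, 1.24 and 1.36 CPM, whereas HAS3, another synthase, rose from 20.2, 18.5 and 19.4 to 29.9, 25.3 and 28.5 CPM. HMMR, a hyaluronan-binding protein of the mitotic spindle, rose by 0.35 (SE 0.05). CEMIP2, a cell surface hyaluronidase, fell by 0.39 (SE 0.04). SPP1, the secreted glycoprotein osteopontin and a ligand of CD44 and of integrins, rose from 27.3, 29.8 and 26.2 to 67.1, 63.3 and 61.1 CPM, a log2 fold change of 1.20 (SE 0.06), with no overlap between groups. PTPRZ1, a receptor phosphatase typical of glial cells that carries chondroitin sulfate, fell by 0.58 (SE 0.06), and MSN, the cytoskeletal linker moesin, rose by 0.17 (SE 0.03). VCAN, the hyaluronan-binding proteoglycan versican, fell by 0.17 (SE 0.04), a call that was lost when FPKM values were tested with limma. Among the genes of this paragraph the largest edgeR adjusted p was 0.00254.

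Where the higher group averaged at least 5 CPM and the libraries of the groups did not overlap, 11 of the 12 largest rises are described here. NT5E, the ectonucleotidase CD73 that makes adenosine outside the cell, stood at 20.7, 19.4 and 17.2 CPM in the control libraries and at 100.1, 76.5 and 87.6 CPM in the knockdown libraries, a log2 fold change of 2.19 (SE 0.09). Every knockdown library lay several-fold above every control library. RGS4, an inhibitor of G-protein signalling, rose from 1.56, 0.786 and 0.468 to 8.38, 5.64 and 7.61 CPM. NAV3, a microtubule-binding protein, rose from 1.12, 0.907 and 0.527 to 7.78, 4.59 and 6.96 CPM. Both averaged under 1 CPM in the control libraries, and their folds (2.81 and 2.85) had an SE of 0.26 and 0.24. The remaining genes were TRAF1 (2.73), DMBT1 (2.47), GBP3 (2.36), CORO2B (2.31), TIAF1 (2.18), OAS2 (2.14), MGLL (2.07) and GBP1 (2.07). MGLL, the lipase that breaks down monoacylglycerols, went from 3.25, 2.90 and 3.34 to 15.6, 12.1 and 12.3 CPM. OAS2, an interferon-induced antiviral enzyme, was the least even of them, at 14.7, 4.73 and 7.11 CPM in knockdown libraries 1, 2 and 3 against 1.92, 1.94 and 2.11 CPM in the controls. Across these 11 rises the edgeR adjusted p reached at most 5.3e-06.

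The 12 largest falls, chosen by the same rule, included secreted, receptor and epithelial genes. EHF, an ETS transcription factor of epithelial cells, stood at 333, 347 and 361 CPM in the control libraries and at 89.1, 119 and 97.3 CPM in the knockdown libraries (-1.76, SE 0.07). CALCRL, the receptor subunit for adrenomedullin and CGRP, fell from 141, 159 and 159 to 35.9, 42.8 and 39.3 CPM (-1.95, SE 0.06). AOC1, a diamine oxidase, fell from 112, 112 and 113 to 26.4, 28.3 and 25.9 CPM (-2.06, SE 0.05). The 3 libraries of a group lay close together in these genes, while the distance between groups was part of the choice. The chemokine gene CXCL14 went from 255, 263 and 258 to 71.6, 92.7 and 69.4 CPM. PRSS35, a serine protease-like gene, went from 89.9, 104 and 102 to 21.3, 25.3 and 21.2 CPM. The others were NTRK3 (-2.04), the receptor for neurotrophin 3, RIPOR2 (-2.02), PI15 (-1.84), FOLR1 (-1.81), a folate receptor, KCND3 (-1.69), a potassium channel, KRT14 (-1.64) and CP (-1.63), the copper-carrying ferroxidase ceruloplasmin. In the 12 falls the edgeR adjusted p was at most 2.0e-08.

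**Figure D2:**
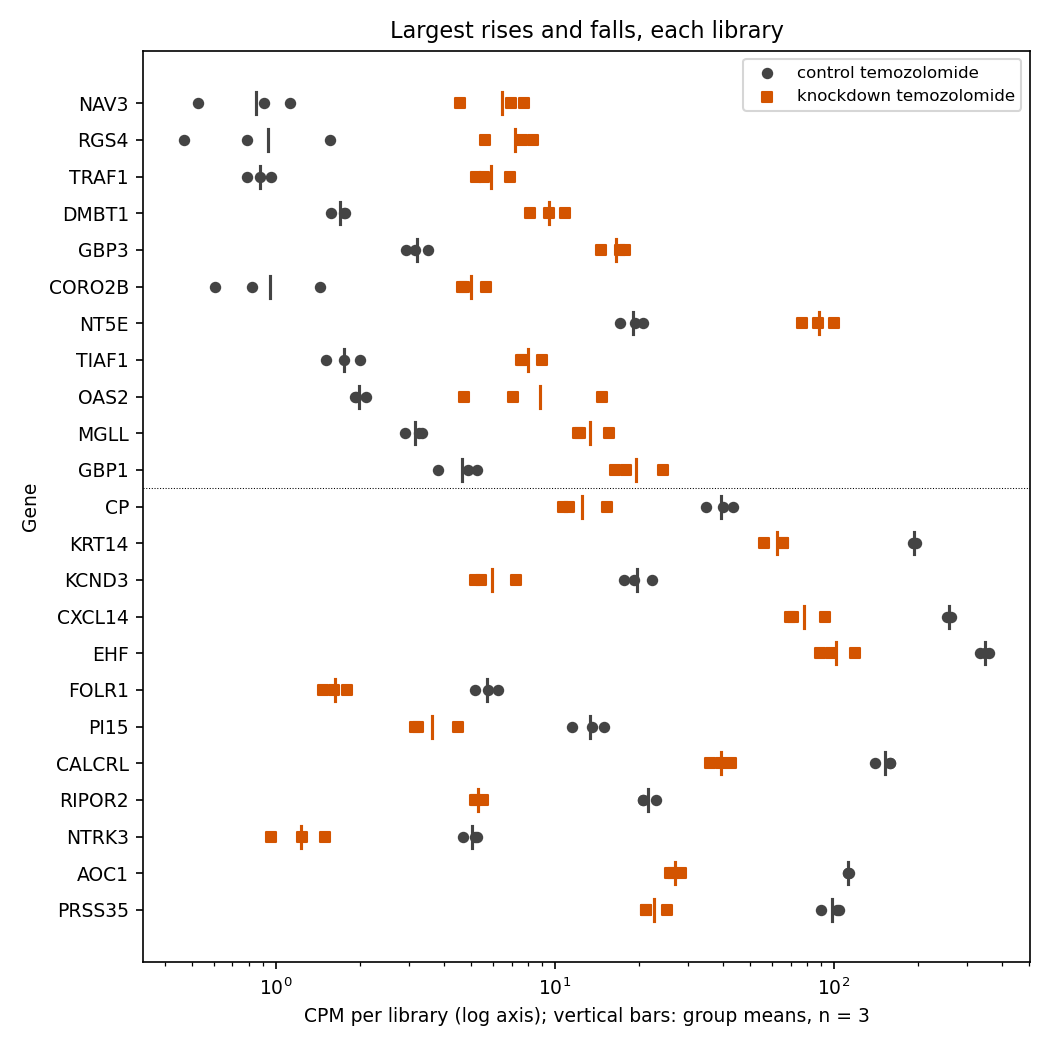
CPM per library (log axis) of 11 of the 12 largest rises (above the dotted line) and the 12 largest falls (below it) under temozolomide, with control libraries as circles, knockdown libraries as squares and group means (n = 3) as vertical bars. The groups are separate in every row because separation was part of the choice; OAS2 is the row with the widest spread among knockdown libraries.

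Extracellular proteolysis genes changed on both the protease and the inhibitor side. Of 18 genes of the plasminogen system and the serpins, 13 were tested and 6 were called higher and 3 lower. PLAU, the protease urokinase that activates plasminogen, went from 65.9, 56.2 and 58.0 to 145, 126 and 129 CPM (1.14, SE 0.06), and its receptor gene PLAUR from 22.4, 20.4 and 20.1 to 34.2, 28.3 and 27.7 CPM (0.51, SE 0.08). Protease and receptor were thus both higher in every knockdown library. SERPINE2, the protease inhibitor nexin-1, rose by 0.47 (SE 0.05). SERPINF1, the secreted anti-angiogenic factor PEDF, fell from 78.5, 80.3 and 83.0 to 41.0, 46.8 and 42.3 CPM (-0.89, SE 0.05). Of 27 metalloproteinases, ADAMs and their inhibitors tested of 35 listed, 8 were called higher and 3 lower, the latter 5 without knockdown temozolomide 1. ADAM19 went from 25.3, 22.6 and 24.2 to 89.1, 76.1 and 82.5 CPM (1.77, SE 0.06) and ADAM12 from 58.3, 54.1 and 53.2 to 118, 113 and 117 CPM (1.07, SE 0.05), both metalloproteinases anchored in the membrane. MMP2, a gelatinase, rose by 0.53 (SE 0.04), while TIMP2 and TIMP3, which inhibit metalloproteinases, fell by 0.36 (SE 0.03) and 0.32 (SE 0.03). ADAM17, a sheddase of many membrane proteins, fell by 0.30 (SE 0.04). In the lysosomal list 8 of 33 tested genes were higher and 7 lower (24.2% and 21.2%), near the shares over all genes. Scaling by library totals raised the higher count to 15. CTSB, the cysteine protease cathepsin B, rose from 274, 264 and 258 to 636, 609.9 and 599 CPM (1.21, SE 0.04), and CTSV, a related cathepsin, fell by 0.63 (SE 0.08). The largest edgeR adjusted p among the genes of this paragraph was 1.5e-05.

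Matrix genes changed in both directions. Of 31 collagen chain genes 25 were tested and 15 were called higher and 5 lower, with a median of 0.26. The basement membrane chains COL4A1 and COL4A2 rose by 0.63 (SE 0.06) and 0.45 (SE 0.05), and COL6A2 went from 11.9, 10.5 and 9.31 to 27.6, 26.9 and 24.7 CPM (1.31, SE 0.11). COL13A1, a membrane-bound collagen, was low in controls, at 1.00, 0.484 and 0.644 CPM, and at 5.69, 3.49 and 5.81 CPM after knockdown. Among the chains that fell, COL11A1 stood at 564, 589.6 and 582 CPM in controls and 307, 355 and 313 CPM after knockdown, and COL14A1 fell by 0.74 (SE 0.04). Of the chains of fibrillar collagen I, COL1A2 fell by 0.28 (SE 0.05), and COL1A1 was low and went from 0.762, 1.27 and 0.937 to 2.22, 2.63 and 1.36 CPM (1.12, SE 0.30), called higher with an edgeR adjusted p of 0.00478 but not in limma on unfiltered FPKM. Of 39 matrix glycoproteins and proteoglycans tested, 16 were called higher and 15 lower. The laminins LAMB1 and LAMA4, which build basement membranes, rose by 0.97 (SE 0.05) and 1.10 (SE 0.09), and so did THBS1 (thrombospondin 1, 0.64, SE 0.04) and SPARC (0.38, SE 0.03). Other matrix glycoprotein genes fell. FBN2, a fibrillin, fell from 696, 702 and 691 to 282, 294 and 295 CPM (-1.26, SE 0.04), EFEMP1 (fibulin 3) fell by 0.59 (SE 0.03), and MFAP5, a microfibril glycoprotein, fell by 0.48 (SE 0.03). POSTN (periostin) fell by 0.65 (SE 0.05). Among 15 tested lysyl oxidases and collagen-modifying enzymes 5 were called higher and 7 lower. LOX, which crosslinks collagen and elastin, fell by 0.86 (SE 0.08), and PCOLCE, which helps to cut procollagen, fell from 11.5, 10.6 and 10.1 to 5.09, 4.40 and 4.09 CPM. The collagen chaperone gene SERPINH1 fell by 0.68 (SE 0.05). LOXL2, a relative of LOX, rose by 0.36 (SE 0.05). Similarly split, the prolyl hydroxylase subunit P4HA2 rose by 0.46 (SE 0.05) and P4HA1 fell by 0.53 (SE 0.04). Except for COL1A1, the edgeR adjusted p was at most 5.3e-05.

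Adhesion genes were called higher more often than lower. Integrins and focal adhesion proteins gave 20 higher and 5 lower of 37 tested, with a median of 0.19. ITGB1, the beta chain that most matrix-binding integrins share, went from 1032, 1035 and 1052 to 1335, 1338 and 1377 CPM (0.38, SE 0.03). ITGA2, a collagen-binding alpha chain, rose by 0.59 (SE 0.05), and the actin linkers ZYX (zyxin) and ACTN1 (alpha-actinin) rose by 0.65 (SE 0.05) and 0.58 (SE 0.04). TLN1 (talin), which couples integrins to actin, fell by 0.47 (SE 0.03), and ITGAV, an alpha chain that binds vitronectin, fell by 0.28 (SE 0.04). The target genes of the mechanosensitive regulators YAP and TAZ hold short GGAATG elements bound by their TEAD partners. A GGAATG match, on either strand in the 250 bases before the gene start, was present in 7 of 25 promoters (28%) of tested genes of the YAP/TAZ list, against 9.44% of all 10281 tested genes with a RefSeq promoter entry. The share was larger in the interferon sensing and signalling list, at 7 of 17 (41.2%), so it is not particular to the YAP/TAZ list. CCN2 is shown because it holds 2 such matches side by side (RefSeq, GRCh38.p14, chr6:131951447-131951482, minus strand, matches in capitals).
CCN2: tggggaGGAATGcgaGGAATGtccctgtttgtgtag
Its transcript, which encodes the matricellular protein CTGF, went from 41.8, 36.6 and 35.8 to 121, 98.5 and 98.6 CPM (1.47, SE 0.08), and CCN1, its relative CYR61, from 52.2, 54.0 and 53.9 to 121, 109.8 and 112 CPM (1.10, SE 0.04). Both were higher in every knockdown library. Of all 971 genes with the match, 25% were called higher and 18% lower, near the 22.4% and 20.4% of all genes with a promoter entry. AMOT, which holds YAP in the cytoplasm, fell by 0.38 (SE 0.05). The largest edgeR adjusted p of the genes named here was 2.1e-05.

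Genes of growth factor receptors changed in both directions. Of 40 receptor tyrosine kinases and ligands tested, 19 were called higher and 11 lower. EGFR, the receptor most often amplified in glioblastoma, went from 96.9, 98.1 and 96.4 to 129, 133 and 133 CPM (0.44, SE 0.04), whereas PDGFRA, the receptor typical of proneural tumours, went from 186, 188 and 196 to 109, 104 and 108 CPM (-0.83, SE 0.04). The 2 receptors therefore moved in opposite directions with no overlap between groups in either. EPHB2 rose by 0.92 (SE 0.06) and ROR1 by 0.96 (SE 0.08), while EPHA3 fell by 0.65 (SE 0.05) and the ligand PDGFC by 0.43 (SE 0.05). ERBB2, a partner of EGFR, fell by 0.33 (SE 0.05), a call lost in limma on unfiltered FPKM. Downstream, the MAPK phosphatase genes DUSP5 and DUSP6, which are induced by ERK and switch it off, rose by 1.13 (SE 0.10) and 0.95 (SE 0.09), and the inhibitor gene SPRY2 fell by 0.35 (SE 0.08). Among 26 AP-1 and immediate-early genes tested 13 were called higher and 5 lower, the latter 3 without control temozolomide 1 or without knockdown temozolomide 3. FOSL1, an AP-1 subunit, went from 11.1, 11.2 and 10.7 to 37.4, 31.7 and 32.8 CPM (1.62, SE 0.08), and FOSL2, its close relative, from 189.99, 197 and 188 to 119, 141 and 122 CPM (-0.59, SE 0.05). MAFF, KLF6 and ATF3, all transcription factors of the early response, rose by 1.33 (SE 0.16), 0.73 (SE 0.05) and 0.70 (SE 0.11). An AP-1 match (TGANTCA, which reads the same on both strands) was found in 3 of 10 promoters of the plasminogen and serpin list against 3.83% of all promoters. This list is named because its share was the largest among the lists compared. Neuron markers held the match in 2 of 7 promoters, and the AP-1 and immediate-early list in 0 of 20. The promoter of PLAUR is shown because the gene rose and holds the match (GRCh38.p14, chr19:43670334-43670370, minus strand, match in capitals).
PLAUR: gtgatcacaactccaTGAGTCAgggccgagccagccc
Of the 10281 tested genes with a promoter entry 394 held this match, of which 30.7% were called higher and 15.5% lower, against 22.4% and 20.4% of all genes with an entry. TGF-beta signalling gave 14 higher and 5 lower of 35 tested, with the receptor TGFBR2 up by 0.35 (SE 0.04), the ubiquitin ligase SMURF2 up by 0.55 (SE 0.05), and the ligands BMP2 and GDF11 down by 0.82 (SE 0.11) and 0.52 (SE 0.04). Signalling genes named here had an edgeR adjusted p of at most 0.00119.

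Developmental signalling lists lay near the shares over all genes (22.0% higher, 20.3% lower). WNT genes gave 10 higher and 11 lower of 37, axon guidance genes 10 and 11 of 38, and Notch genes 3 and 4 of 15. Single genes in them changed strongly. DKK3, a secreted glycoprotein of the dickkopf family, went from 11.8, 11.01 and 11.2 to 37.2, 32.3 and 37.1 CPM (1.64, SE 0.08), and the ligand WNT5B from 7.30, 7.20 and 7.55 to 19.997, 17.3 and 19.1 CPM (1.35, SE 0.09). L1CAM, a neural adhesion molecule, rose by 1.37 (SE 0.12). RNF43, which removes WNT receptors from the surface, fell by 0.56 (SE 0.07). For axon guidance, the semaphorin co-receptor NRP1 rose by 0.57 (SE 0.04), and the receptors UNC5B and ROBO1 fell by 0.68 (SE 0.05) and 0.58 (SE 0.04). In the Notch pathway the ligand JAG1 rose by 0.42 (SE 0.04) and HEY1, a target repressor, fell from 59.6, 64.0 and 66.2 to 32.3, 34.4 and 40.3 CPM. All of these genes had an edgeR adjusted p of at most 7.6e-07.

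Genes of the interferon response were higher in the knockdown libraries, unevenly between them. Interferons signal through transcription factors that bind an element in the promoters of their targets that is read here as GAAA, any 2 bases and GAAA again. That pattern, searched on both strands in the 250 bases before the gene start, was present in 20 of 32 promoters (62.5%) of the tested interferon-stimulated effector genes and in 7 of 16 (43.8%) of the antigen presentation genes, against 2.37% of all promoters. In 4 examples, shown because their transcripts rose and they hold the element, the match is in capitals and is read on the gene's own strand, where TTTC marks a match on the opposite strand (RefSeq, GRCh38.p14).
OAS3 (chr12:112938447-112938473, plus strand): cggagagccgggcggGAAAACGAAAcc
PARP14 (chr3:122680795-122680834, plus strand): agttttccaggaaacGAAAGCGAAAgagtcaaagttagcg
TAP2 (chr6:32838773-32838812, minus strand): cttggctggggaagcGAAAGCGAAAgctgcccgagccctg
GBP1 (chr1:89065311-89065350, minus strand): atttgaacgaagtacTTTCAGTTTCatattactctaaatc
OAS3, a sensor that makes oligoadenylates on double-stranded RNA, stood at 11.5, 11.1 and 9.84 CPM in the controls and 46.5, 21.5 and 25.8 CPM in the knockdown libraries (1.52, SE 0.20). PARP14, an ADP-ribosyltransferase, went from 64.7, 64.9 and 63.6 to 115, 86.6 and 101 CPM (0.64, SE 0.07). TAP2, which carries peptides to HLA molecules, went from 76.1, 78.3 and 77.8 to 121, 105 and 108 CPM (0.52, SE 0.05). All 3 were highest in knockdown library 1, and no library of one group reached the other. Of the 29 genes of the 4 interferon and antigen lists that hold the element, 25 were called higher and 0 lower, and of the 39 without it 24 and 1. Outside these lists 215 genes hold the element, and 23.7% of them were called higher and 18.1% lower, near the background.

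The uneven size was seen across the list. The median over the 41 tested effector genes, as log2 CPM relative to the control mean, was 1.17, 0.38 and 0.53 in knockdown libraries 1, 2 and 3 and 0.02, -0.02 and 0.01 in the control libraries. Without knockdown library 1 the median change fell from 0.69 to 0.46, and the counts went from 32 higher and 0 lower to 26 and 2. The guanylate-binding proteins, GTPases that interferon gamma induces strongly, numbered 5 tested of 6 listed, and 5 were called higher. GBP1, whose element is shown above, went from 4.89, 5.26 and 3.81 to 24.4, 17.9 and 16.4 CPM. GBP2 went from 8.18, 6.11 and 6.85 to 21.4, 19.0 and 20.2 CPM, and GBP5 was at 1.00, 0.907 and 0.527 CPM in controls and 5.87, 3.63 and 3.52 CPM after knockdown. Sequence similarity between these neighbouring genes leaves the split of reads among them uncertain. Upstream, the DNA sensor gene IFI16 rose by 0.76 (SE 0.08) and IRF1, a transcription factor of the response, by 0.97 (SE 0.11), within a signalling list of 12 higher and 1 lower of 24. Antigen presentation genes gave 12 higher and 0 lower of 20 tested. HLA-B, a class I heavy chain whose reads can be shared with other HLA genes, went from 206, 200.1 and 201 to 359.8, 354 and 315 CPM (0.76, SE 0.04), and NLRC5, the activator of class I genes, rose by 0.38 (SE 0.05). ERAP2, which trims peptides, rose by 0.58 (SE 0.06). The list of ligands that restrain T and NK cells gave 8 higher and 0 lower of 13 tested. It also holds NT5E, which encodes an enzyme, was described among the largest rises and is counted here as higher. CD274, which encodes PD-L1, went from 3.97, 3.57 and 5.09 to 13.2, 12.6 and 10.3 CPM (1.53, SE 0.14), and PDCD1LG2, which encodes PD-L2, from 0.521, 0.423 and 0.527 to 6.53, 3.82 and 3.30 CPM. PVR, the ligand of TIGIT, rose by 0.41 (SE 0.05). Among NF-kB genes, RELB and BIRC3 rose by 1.43 (SE 0.13) and 1.29 (SE 0.11), and TNFAIP2 was the gene called lower, going from 325, 311 and 309 to 187, 193 and 169.96 CPM (-0.78, SE 0.04). Genes named in this and the preceding paragraph had an edgeR adjusted p of at most 2.8e-06.

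**Figure D3:**
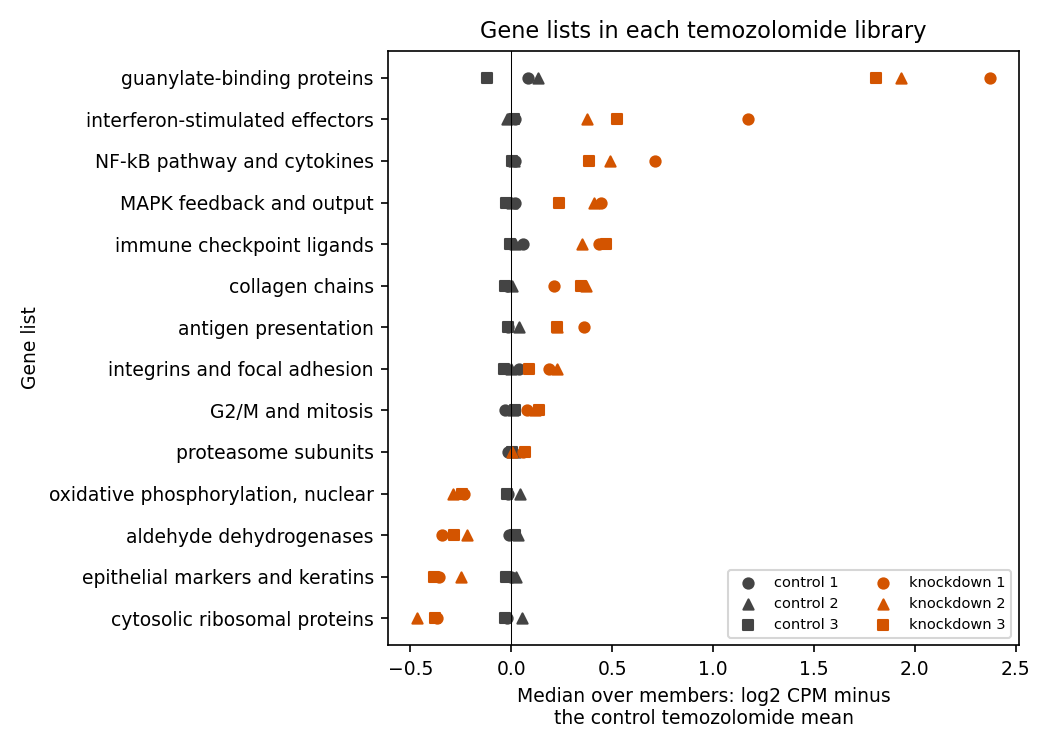
Each point is 1 temozolomide library and gives the median, over the tested members of a gene list, of log2 CPM minus the mean of the control libraries (horizontal axis), for 14 lists (vertical axis). Control libraries lie near 0, knockdown library 1 lies at 1.17 for the interferon-stimulated effectors where the other 2 lie at 0.38 and 0.53, and the ribosomal protein genes lie at -0.37 to -0.47 in all 3 knockdown libraries.

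The markers of cell identity in this line were partly those of other tissues. GFAP, the intermediate filament of astrocytes, had only 4 to 17.2 estimated counts per library under temozolomide and was not called (log2 fold change 0.50, edgeR adjusted p 0.486; the sign turned to -0.08 without knockdown library 1). The neural stem cell factor SOX2, in contrast, was present at 389, 399 and 409.8 CPM in controls and fell to 262, 279 and 283 CPM (-0.54, SE 0.03). Of 19 stem and SOX factors tested 7 were called higher and 5 lower. SOX21, a repressor of SOX2 targets, fell by 0.97 (SE 0.06), SOX4 by 0.86 (SE 0.05) and SOX5 by 0.80 (SE 0.07). NES (nestin), a filament of neural progenitors, rose by 0.73 (SE 0.06) and ALDH1A3, an aldehyde dehydrogenase described as a mesenchymal glioma stem cell marker, rose from 4.77, 4.78 and 4.45 to 12.99, 10.3 and 11.5 CPM. Of 19 epithelial markers and keratins tested 2 were called higher and 11 lower. KRT15 stood at 623, 669 and 657 CPM in controls and 201, 258 and 228 CPM after knockdown (-1.50, SE 0.06), and KRT5 went from 557, 582 and 563 to 294, 347 and 298 CPM (-0.86, SE 0.05). KRT14, whose reads can be shared with close keratin copies, fell by 1.64 (SE 0.05), and the epithelial factor ELF3 by 1.16 (SE 0.06). Each of these 4 genes was lower in each knockdown library than in each control library. The genes called higher encode tight junction proteins, OCLN (occludin, 0.35, SE 0.13, edgeR adjusted p 0.0355) and CLDN4 (claudin 4, 0.18, SE 0.06, edgeR adjusted p 0.0213). Neither call held with DESeq2, without control temozolomide 2, without control temozolomide 3 or without knockdown temozolomide 1.

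Mesenchymal genes went both ways, with 7 called higher and 10 lower of 24 tested. VIM, the filament vimentin, rose from 2620.3, 2489 and 2442 to 3249, 3045 and 3143 CPM (0.32, SE 0.03), ANXA2 by 0.52 (SE 0.03), ZEB2 by 0.71 (SE 0.09) and RUNX2 by 0.62 (SE 0.07), whereas S100A4 and PRRX1 fell by 0.56 (SE 0.07) and 0.40 (SE 0.05). Neuron markers gave 6 higher and 0 lower of 8 tested (18 listed), among them SYT1 (1.06, SE 0.14), a synaptic vesicle protein, and TUBB3 (0.75, SE 0.09), a neuronal tubulin. Astrocyte markers gave 1 higher and 3 lower of 8 tested. The glutamate transporter gene SLC1A3 rose by 0.67 (SE 0.05). The glycolytic enzyme gene ALDOC fell by 1.17 (SE 0.12), the connexin gene GJA1 by 0.56 (SE 0.05) and GLUL, which makes glutamine, by 0.49 (SE 0.04). Of 12 markers of microglia and macrophages only 1 passed the filter, CD68, a lysosomal glycoprotein, which went from 15.7, 13.4 and 15.5 to 27.1, 23.7 and 25.8 CPM and was called higher (this gene was picked after its values were seen). AIF1, C1QA, C1QB, TMEM119 and TYROBP, which define those cells, had 0 counts in all 6 libraries. Of 11 oligodendrocyte lineage markers 3 were tested, with 0 called higher and 1 lower, which was PDGFRA, and MAG, MOG and OLIG1 had 0 counts. Of 11 endothelial and mural markers 7 were tested and 3 were called higher and 1 lower. KDR, a VEGF receptor, was at 0.321, 0.121 and 0.117 CPM in controls, near the floor, and at 1.38, 1.82 and 1.36 CPM after knockdown, and CDH5, the endothelial cadherin, fell from 19.2, 22.9 and 22.8 to 12.2, 12.5 and 13.1 CPM. Of 10 fibroblast markers 8 were tested and 4 were called higher and 2 lower, among them THY1, a surface glycoprotein, which rose by 0.90 (SE 0.08). The summed level of a whole list, in CPM, was lower after knockdown for astrocyte markers (525 to 560.1 against 674 to 723 in controls), oligodendrocyte markers (178 to 194 against 258 to 268), endothelial and mural markers (24.0 to 25.1 against 28.7 to 31.9) and fibroblast markers (331 to 361 against 452 to 464). It was higher for neuron markers (752 to 797 against 629 to 637) and for microglia and macrophage markers (24.5 to 27.5 against 13.8 to 16.5). Abundant members weigh most in such a sum. PDGFRA, in the oligodendrocyte list, went from 186, 188 and 196 to 109, 104 and 108 CPM. CD68, at the values above, makes up most of the microglia and macrophage sum. The median log2 fold changes of the endothelial and fibroblast lists were 0.37 and 0.31, opposite in direction to their sums. The part of other cell types in the results was not tested. Except for GFAP, OCLN and CLDN4, the genes of these 2 paragraphs on identity had an edgeR adjusted p of at most 3.9e-06.

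Cytosolic ribosomal protein genes were lower, with 77 called lower of 79 tested. Many of their mRNAs begin with a C followed by a run of pyrimidines, the terminal oligopyrimidine start through which mTORC1 controls their translation. In RefSeq's gene starts, a C followed by at least 4 pyrimidines opened 43 of 63 ribosomal protein genes (68.3%) and 12 of 34 translation factor genes (35.3%), against 4 of 54 mitochondrial ribosomal protein genes (7.41%) and 5.46% of all genes. The first 20 bases of 5 of them are shown to set starts with this run, in capitals, beside 1 without it (GRCh38.p14).
RPL14 (chr3:40457339-40457358, plus strand): CTTCTCgcctaacgccgcca
RPL3 (chr22:39319604-39319623, minus strand): CTCTaccggcgggatttgat
EEF1A1 (chr6:73521013-73521032, minus strand): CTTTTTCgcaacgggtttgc
EIF4B (chr12:53006456-53006475, plus strand): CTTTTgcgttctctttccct
MRPL16 (chr11:59810759-59810778, minus strand): gccccactgagcggtgtcct
RPL3 is printed because its run is 1 base short of the rule. It still fell, from 1303, 1335 and 1318 to 1031, 1036 and 1025 CPM (-0.36, SE 0.03). EEF1A1, which brings aminoacyl-tRNA to the ribosome, fell from 9928, 9838 and 10052 to 8202, 8037 and 8145 CPM (-0.29, SE 0.02), and EIF4B, a helicase cofactor, fell by 0.40 (SE 0.03). MRPL16, a mitochondrial ribosome protein without such a start, went from 34.2, 35.9 and 36.0 to 15.03, 14.9 and 14.2 CPM (-1.26, SE 0.07), a larger fall than in any of the 79 cytosolic ribosomal protein genes, among which RPS28 fell most (-0.99, SE 0.08). MRPL16 does not stand for its list. Of 61 mitochondrial ribosomal protein genes tested, 5 were called higher, 16 lower (26.2%) and 40 not called. Their median was -0.10, against -0.41 for the cytosolic ones. Of the 43 ribosomal protein genes with the start, 43 were called lower (median -0.45), and of the 20 without it 18 (median -0.34). Outside the ribosomal protein list 518 genes have such a start, and 27% of them were called lower and 15.1% higher, against 20.4% and 22.4% of all genes with an entry.

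Transcript length moved with this result. Ribosomal protein genes have a median longest transcript of 1857 bases against 3770 for all genes, and the 256 genes with a longest transcript under 1000 bases that are neither ribosomal nor oxidative phosphorylation genes had a median change of -0.15. In the libraries themselves, genes under 1000 bases relative to the others were at 0.08, 0.11 and 0.04 (log2) in the controls and at -0.05, -0.17 and -0.10 in the knockdown libraries. The part of length in the fall of these transcripts was not tested. In the fit with a GC content and length correction the ribosomal protein median was -0.39 with 77 called lower. That fit took each gene's longest transcript as its length, which need not be the one expressed, so it is no test of the part of length. Among respiratory chain genes NDUFC1, a complex I subunit, fell from 32.0, 31.3 and 27.9 to 16.3, 16.1 and 17.3 CPM (-0.88, SE 0.10), and ATP5F1A, of the ATP synthase, fell by 0.31 (SE 0.03). The largest edgeR adjusted p among the genes of these 2 paragraphs was 7.1e-07.

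Large falls were found among metabolic enzymes with detoxifying roles. Aldehyde dehydrogenases, which oxidise reactive aldehydes, gave 2 higher and 10 lower of 14 tested, with a median of -0.28. ALDH1A1, the retinaldehyde dehydrogenase widely used as a stem cell marker, fell from 178, 205 and 199.6 to 80.9, 99.0 and 85.7 CPM (-1.12, SE 0.06), and ALDH7A1 fell by 0.45 (SE 0.04). With ALDH1A3 above, the 2 retinaldehyde dehydrogenases moved in opposite directions. The aldo-keto reductases AKR1C1, AKR1C2 and AKR1C3, near-identical neighbours whose reads are hard to divide, fell by 0.79 (SE 0.04), 1.48 (SE 0.04) and 0.69 (SE 0.05), with AKR1C2 going from 261, 267 and 281 to 96.3, 101 and 93.2 CPM. Targets of NRF2, the regulator of antioxidant genes, went both ways. Of the 28 tested genes of that list, 8 were called higher and 10 lower. TXNRD1, the thioredoxin reductase, rose by 0.58 (SE 0.03), OSGIN1 went from 7.26, 6.05 and 7.20 to 19.0, 16.0 and 17.3 CPM (1.34, SE 0.11), and GCLM, of glutathione synthesis, fell by 0.50 (SE 0.04). Transporters of the ABC family, some of them drug exporters, gave 10 higher and 4 lower of 26, and the lower count was 7 with the GC correction and 8 with GC and length. ABCA1, the cholesterol exporter, rose by 0.52 (SE 0.07) and ABCC2 by 0.35 (SE 0.05), and ABCC4 fell by 0.29 (SE 0.07). In lipid metabolism the desaturases SCD and FADS2 fell by 0.58 (SE 0.03) and 0.62 (SE 0.04). Of 34 tested genes of amino acid metabolism 5 were called higher and 13 lower, with BCAT1, the branched-chain aminotransferase of gliomas, going from 550.4, 564 and 551 to 351, 383 and 398 CPM (-0.56, SE 0.04). All these genes had an edgeR adjusted p of at most 0.00148.

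Stress response genes of the endoplasmic reticulum were called lower more often than higher. Genes of the unfolded protein and integrated stress response gave 8 higher and 14 lower of 30. HYOU1, a chaperone of the endoplasmic reticulum, fell from 510.2, 502 and 502 to 287, 284 and 289.8 CPM (-0.81, SE 0.03). PPP1R15A (GADD34), which restores translation after stress, rose by 0.57 (SE 0.08). Heat shock proteins, in contrast, were called higher more often than lower, with 8 higher and 3 lower of 17 (47.1% and 17.6%). HSPA8 and HSPB1 rose by 0.22 (SE 0.03) and 0.36 (SE 0.06). HSPE1 and HSPD1, the partners of the mitochondrial chaperonin, fell by 0.59 (SE 0.07) and 0.28 (SE 0.03). For the genes named in this paragraph the edgeR adjusted p was at most 5.5e-05.

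Mitotic genes were called higher more often than lower, by small amounts. For mitosis, 30 of 57 tested genes were called higher and 3 lower, with a median of 0.11, and the lower count was 1 without control temozolomide 2 or knockdown temozolomide 1 and 6 with the GC correction. PLK1, a mitotic kinase, went from 89.3, 89.8 and 88.2 to 115, 111 and 112 CPM (0.34, SE 0.04), CDC25B, the phosphatase that activates CDK1, rose by 0.44 (SE 0.04) and ANLN (anillin) by 0.33 (SE 0.03). CCNA2 (cyclin A2) fell by 0.17 (SE 0.03). The proliferation marker MKI67 stood at 1263, 1281 and 1271 CPM in controls and 1209.8, 1257 and 1266 CPM after knockdown, groups that overlap, and was not called (log2 fold change -0.03, SE 0.03, edgeR adjusted p 0.473), its sign turning to 0.01 with library totals alone and to 0.00 in the FPKM fits. For G1/S and replication 13 of 58 were called higher and 19 lower. The G1 partners CCND1 (cyclin D1) and CDK6 went from 155, 155 and 147 to 251.2, 221 and 234 CPM (0.63, SE 0.04) and from 138, 149 and 139.8 to 245, 249 and 245 CPM (0.79, SE 0.04). CDK2, the kinase that follows them at S-phase entry, fell from 119, 112 and 111 to 76.2, 74.6 and 76.2 CPM (-0.60, SE 0.04). Of the E2F factors, the activator E2F2 fell by 0.71 (SE 0.05) and the repressor E2F7 rose by 0.78 (SE 0.04). RRM2, which makes deoxynucleotides, rose by 0.32 (SE 0.03). Except for MKI67, these genes had an edgeR adjusted p of at most 2.7e-04.

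Among repair genes that act on temozolomide lesions, MGMT was not tested, with 0 counts in 5 of the 6 temozolomide libraries and 1 count in knockdown library 2, which is under the floor of 3 counts, so no difference was detectable at this depth. Of 28 tested genes of alkylation, mismatch and base excision repair 5 were called higher and 6 lower (17.9% and 21.4%), near the shares over all genes. The lower count was 3 without knockdown temozolomide 2. MSH6, a mismatch recognition protein, stood at 246, 241 and 238 CPM in controls and 199, 201 and 205 CPM after knockdown (-0.26, SE 0.03), a fall of small size without overlap between groups. PMS2, which cuts the strand, fell by 0.32 (SE 0.06), and PMS1 rose by 0.34 (SE 0.06). Double-strand break and crosslink repair gave 10 higher and 4 lower of 53 (18.9% and 7.55%), both below the shares over all genes, and 39 were not called. With the GC correction the lower count was 10. WEE1, the checkpoint kinase that holds CDK1 inactive, rose from 28.8, 28.5 and 28.2 to 42.7, 52.1 and 45.7 CPM (0.72, SE 0.07), and CHEK1, a checkpoint kinase of stalled forks, rose by 0.16 (SE 0.04). RNF168, a ubiquitin ligase at breaks, fell by 0.31 (SE 0.05), a call lost in the FPKM fits. APEX2, an endonuclease of base excision, rose by 0.35 (SE 0.08). The largest edgeR adjusted p in this paragraph was 0.00115.

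Growth arrest and death genes changed in both directions. CDKN1A, the CDK inhibitor p21, stood at 32.4, 33.3 and 30.4 CPM in controls and 36.0, 33.0 and 35.6 CPM after knockdown, groups that overlap, and was not called (log2 fold change 0.12, SE 0.06, edgeR adjusted p 0.113), although it was called at 0.16 with library totals alone and at 0.15 to 0.16 in the FPKM fits. GADD45A, a stress-induced growth arrest gene, rose from 25.8, 24.0 and 20.3 to 60.2, 54.2 and 54.9 CPM (1.26, SE 0.07). In the BCL2 family 2 of 13 tested were called higher and 4 lower. Both survival and death genes were among them. BCL2L1, the survival protein BCL-XL, fell by 0.40 (SE 0.04), and BMF, a death-promoting BH3 protein, fell from 4.21, 4.54 and 4.86 to 1.497, 1.91 and 1.00 CPM (-1.57, SE 0.22), while BIK, another BH3 protein, rose by 0.63 (SE 0.13). BCL2L11 (BIM) fell by 0.23 (SE 0.05), a call lost in the FPKM fits. IGFBP5, a secreted binding protein for insulin-like growth factors also counted with senescence genes, fell from 769.6, 714 and 751 to 302, 309 and 321 CPM (-1.26, SE 0.04). Except for CDKN1A the largest edgeR adjusted p was 0.00148.

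**Figure D4:**
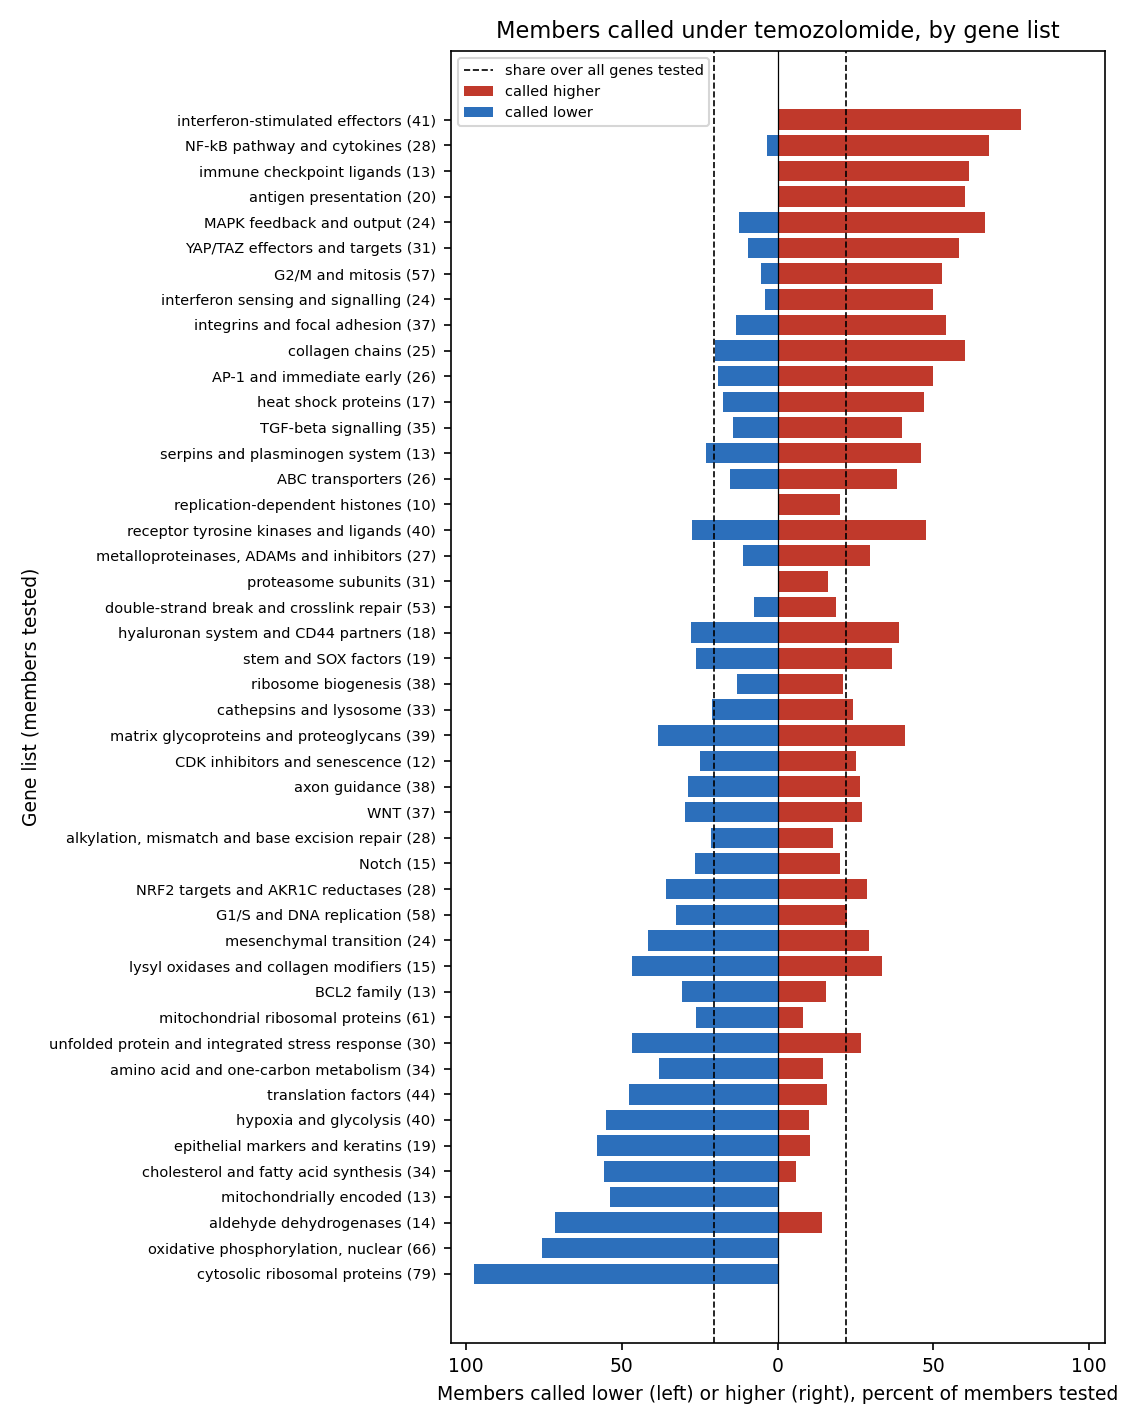
Share of the tested members that was called higher (red, to the right) or lower (blue, to the left) under temozolomide, in percent, for most of the gene lists with at least 10 tested members. Dashed lines mark the shares over all genes tested (22.0% higher, 20.3% lower); lists such as the double-strand break genes lie inside them, while the aldehyde dehydrogenases lie well beyond the left line and the collagen chains beyond the right one.

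The knockdown change with temozolomide was then set against that in DMSO, where the 6 libraries are different ones. Under DMSO 5458 genes (42.6%) were called, 2710 higher (21.1%) and 2748 lower (21.4%), of which 338 (2.64%) and 120 (0.936%) changed at least 2-fold. Of the temozolomide calls 68.7%, which is 3726 genes, were called in the same direction under DMSO, 68.3% of the DMSO calls, and 20 were called in opposite directions. The change of CD44 differed by 0.05 (SE 0.05) between treatments, a difference that was not called. A call under 1 treatment only is no sign of a difference. Of 1680 genes called under temozolomide and not under DMSO, the difference itself was called in 32. In all, the difference between the knockdown changes was called in 135 genes (1.05%), 56 (0.437%) with a more positive and 79 (0.616%) with a more negative change under temozolomide. At least 2-fold, these were 3 (0.0234%) each.

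The knockdown change of several strongly reduced genes was more negative under temozolomide. EHF changed by -1.76 under temozolomide and -1.04 under DMSO, a difference of -0.71 (SE 0.09, edgeR adjusted p 7.3e-04). In the DMSO libraries it stood at 414, 446 and 423 CPM in controls and 205, 213 and 205 CPM after knockdown. CXCL14 (-1.72 against -1.13, adjusted p 0.00868 in edgeR) and PI15 (-1.84 against -0.76, adjusted p 0.00657 in edgeR), a secreted protease inhibitor-like protein, showed the same order. IGFBP5 went with them, at -1.26 against -0.79 (edgeR adjusted p 6.6e-04). NOS2, the inducible nitric oxide synthase, was lowered by the knockdown under DMSO (-0.86) and stood at 6.29, 5.81 and 6.21 CPM in control and 6.65, 6.50 and 5.74 CPM in knockdown libraries under temozolomide (0.05), a difference of 0.91 (SE 0.14, edgeR adjusted p 0.00505). FILIP1L, a filamin-interacting protein, was raised under DMSO (0.58) and close to its control under temozolomide (-0.05, edgeR adjusted p 0.0103 for the difference). EMP1, a membrane protein of epithelial cells, rose more under temozolomide (1.03 against 0.58, edgeR adjusted p 0.0272). In limma on log2(FPKM + 1) and on log2(FPKM + 0.1), 2 genes were called more positive and 0 more negative. The calls of EHF, CXCL14, PI15, IGFBP5 and FILIP1L were lost there.

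GC content moved with these differences. The 56 more positive genes had a median GC content of 59.1% in their longest transcript, the 79 more negative ones 39.0%, and all genes 47.9%. In the libraries, genes above 60% GC relative to those below 40% were at 0.07 to 0.22 (log2) in the DMSO controls, at -0.08 to -0.03 in the DMSO knockdowns, at -0.13 to 0.04 in the temozolomide controls and at -0.12 to 0.08 in the temozolomide knockdowns. With a GC correction 33 differences were called, 27 of them among the 135, and with a GC and length correction 51 and 38. The number also depended on single libraries. The counts of more positive and more negative genes were 5 and 17 without control DMSO 1, 11 and 14 without knockdown DMSO 1, 24 and 43 without knockdown DMSO 2, 9 and 22 without knockdown DMSO 3, 6 and 13 without control temozolomide 2, and 9 and 19 without control temozolomide 3. They were 210 and 185 without control temozolomide 1, and 182 and 212 without knockdown temozolomide 3. The more positive count alone changed to 36 without control DMSO 3 and to 22 without knockdown temozolomide 1, and the more negative one to 188 without control DMSO 2. By contrast, with GC corrected the knockdown change under temozolomide kept most of its calls, 5093 of the 5419 with a GC value in the same direction. The balance between the directions did move. With the GC correction 2558 genes were called higher and 3199 lower, so that 44.4% of calls were higher against 52.0% in the main fit. With GC and length this share was 43.5%.

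**Figure D5:**
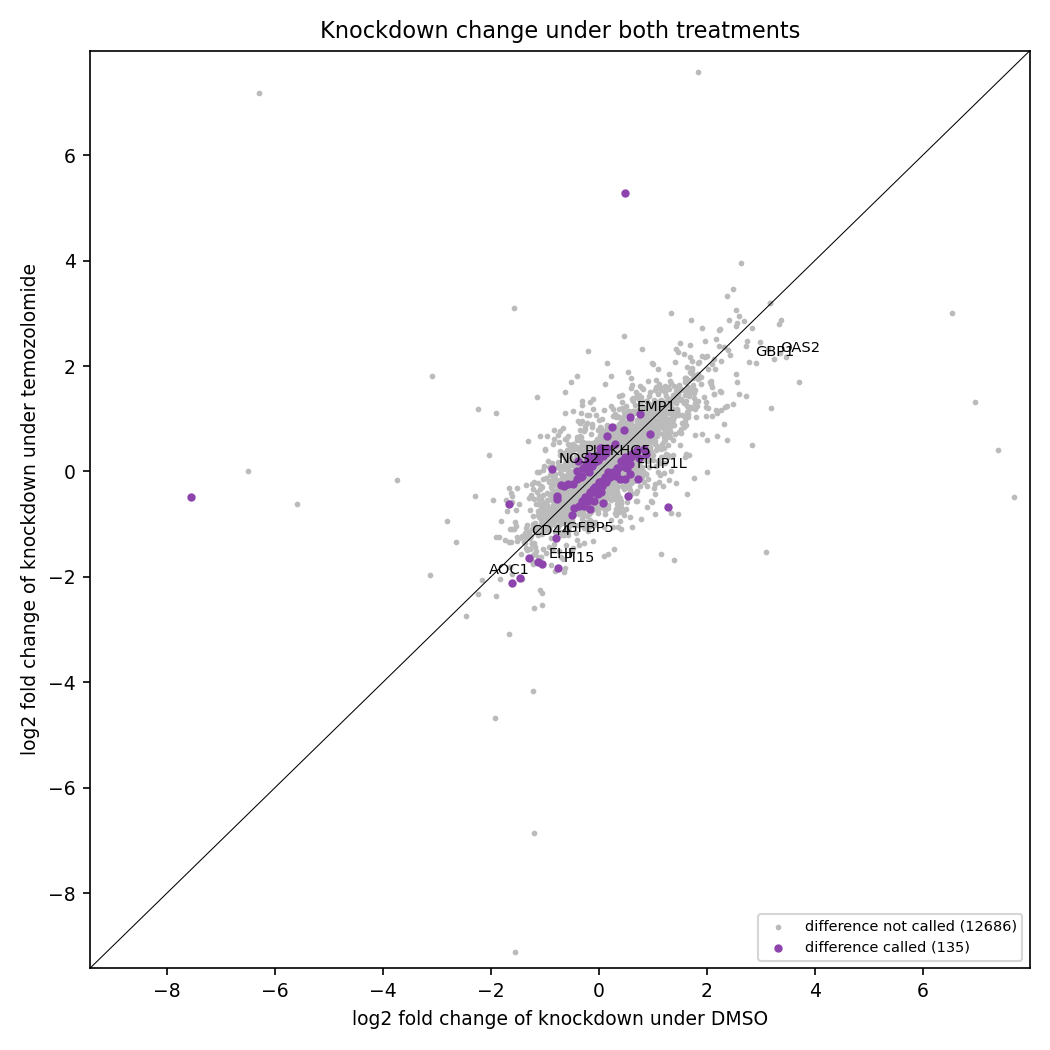
Log2 fold change of knockdown over control under temozolomide (vertical) against that under DMSO (horizontal) for the 12821 genes tested, with the line of equal change. The 135 purple points are the genes whose difference was called; EHF, PI15 and IGFBP5 lie below the line and NOS2 and EMP1 above it.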

How the data were processed

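Poly(A) RNA of the 12 libraries was analysed from the authors' table of estimated counts per gene, in which 10.7% to 12.0% of the values per library are fractions. The authors also deposited FPKM values (fragments per length of transcript and per library total), which served only for alternative fits. RSEM, HISAT2, StringTie 1.3.1, Bowtie2 2.2.8 and fastp 0.18.0 are the tools named, per the submitters' processing notes. For the counts, neither build nor annotation is given in the sources used here. Counting reads shared between near-identical copies may shift them between those genes. Groups came from the labels. Rows without a gene symbol (583, holding 0.132% of the counts) were kept out of gene names.

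Counts were rounded and fitted in R 4.3.3 with edgeR 4.0.16 (filterByExpr, TMM, a quasi-likelihood model with 4 group means over all 12 libraries, 8 residual degrees of freedom, biological coefficient of variation 3.90%), so the 4 groups share an estimate of the spread. Calls were made at p below 0.05 after Benjamini-Hochberg adjustment, and SE values were derived from the fold change and its F statistic. The procedure was tested on simulated data. The members and the 54 gene lists (1625 symbols, all found) were chosen with earlier results of these data known. Named genes follow a rule: CD44, MGMT, MSH6, CDKN1A, SOX2, VIM, MKI67 and GFAP, the 12 largest rises and falls, the 8 largest differences each way, all of them averaging at least 5 CPM in their highest group, and up to 4 members per list of at least 5 tested genes and direction with the smallest p. This gives 355 genes, of which the text names a part, and some are not reported here. Promoters and gene starts are RefSeq's (GRCh38.p14), matched by symbol for 10281 of the 12821 tested genes.

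Alternatives were other size factors, filters and thresholds, DESeq2 1.42.0, limma 3.58.1 on log2(FPKM + 1) and log2(FPKM + 0.1), the replicate number as a block, only the 6 temozolomide libraries and each library left out. Corrections for GC content and length were chosen after seeing the data. Same-numbered knockdown and control libraries did not deviate together (correlations 0.14, -0.08 and 0.05), so no pairing was used.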

Additional observations from a re-analysis of the deposited data

Results flagged for a closer look

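Among the named genes, the knockdown change under temozolomide differed from that under DMSO by the test of the difference itself (edgeR, adjusted p below 0.05) in 26. In each of the 3 FPKM fits with limma, 24 of these genes lost the call. The differences below are log2 values, temozolomide minus DMSO.

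Of the 18 genes with a more negative change under temozolomide, 3 belong to the largest falls of secreted proteins, PI15 (-1.07), CXCL14 (-0.59) and PRSS35 (-0.51). RIPOR2 (-0.55), KRT14 (-0.35) and EHF (-0.71) also fell in both treatments. Matrix and adhesion genes were COL11A1 (-0.34), MFAP5 (-0.21), ITGAV (-0.28) and IGFBP5 (-0.47). Amino acid metabolism was represented by SLC7A11 (-0.25), the cystine importer, and BCAT1 (-0.25). SLC7A11 rose under both treatments, by 0.25 under temozolomide against 0.50 under DMSO. The remaining ones were GJA1 (-0.35), which encodes the gap junction protein connexin 43, GAR1 (-0.67), RAB33B (-0.63), FILIP1L (-0.63), PCDHB9 (-0.87), a protocadherin with close copies, and the readthrough locus MSANTD3-TMEFF1 (-1.01), whose reads overlap those of other genes.

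More positive changes were found in EMP1 (0.45), NOS2 (0.91), UPP1 (0.59), a uridine phosphorylase, PLEKHG5 (0.59), GRAMD1A (0.48), PTDSS2 (0.47), C1orf116 (1.03) and the readthrough locus ANKHD1-EIF4EBP3 (0.50), which shares exons with ANKHD1. Over all 135 called differences, GC content moved with the sign as described above, and the part of GC content in these 26 differences was not tested one by one.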

How the results depend on the processing

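For knockdown under temozolomide, the counts higher and lower stayed within 1.5 times under other size factors, filters, DESeq2, the replicate block, the GC corrections and each library left out. Of the 229 genes carried through, 229 kept direction and call with relative log expression factors, with no filter, with a 1 CPM filter and with the replicate block over 12 libraries, as did all 228 genes in the fits to the 6 temozolomide libraries, with and without the replicate block, and 227 with DESeq2. The block, with numbers that do not clearly pair the libraries, gave 5483 calls against 5426. Limma on FPKM called 1593, 1560 and 1585 genes lower (log2(FPKM + 1), log2(FPKM + 0.1), unfiltered), and 1656, 1636 and 1659 under DMSO. At least 2-fold, calls were 311 and 116 under temozolomide, 338 and 120 under DMSO, and 3 and 3 for the difference.

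The difference from DMSO was the least stable result. Its counts (56 more positive, 79 more negative) became 187 and 359 with no filter, 103 and 119 with the replicate block, 125 and 212 with DESeq2, 2 and 0, 2 and 0, and 4 and 1 in the FPKM fits, 4 and 9 at adjusted p below 0.01, 10 and 23 with the GC correction and 16 and 35 with GC and length. Leaving out 1 library gave 5 to 210 and 13 to 212. The cause was not tested.

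Signs reversed for MKI67 (0.0053 with library totals alone, 0.0024 in the 3 FPKM fits), GFAP (-0.085 to 0.73 with 1 library left out, negative without knockdown temozolomide 1, and -0.026 in unfiltered FPKM), FILIP1L (-0.14 to 0.020 with 1 library left out, positive without knockdown temozolomide 3) and NOS2 (-0.024 with GC and length), none of them called as reported, and for the medians of endothelial (-0.22 and -0.21), fibroblast (-0.22 and -0.23) and stem and SOX lists (-0.014 and -0.014) in filtered FPKM and of mitochondrially encoded genes (0.017 with GC and length). MKI67 was called lower with the GC correction (-0.08) and with GC and length (-0.17). Depth limits genes near 0.121 to 0.222 CPM.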
